A study of Rattus norvegicus with 15 samples.

Results

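The transcripts of the mitochondrial respiratory chain were followed in rat lung by RNA sequencing of 15 libraries, 5 in each of 3 groups. Members were chosen by name: every gene whose symbol begins with Mt-, Nduf, Uqcr or Atp5 or with Cox and a digit from 4 to 8, plus Sdha, Sdhb, Sdhc and Sdhd. This gave 110 of the 22250 genes in the table, 13 encoded by mitochondrial DNA and 97 by nuclear DNA. All rats were labelled wild type (WT). SJY rats had received lipopolysaccharide (LPS, a bacterial outer-membrane molecule that provokes inflammation) into the trachea and the herbal formula Sang Ju Yin into the stomach. ALI rats had received LPS into the trachea. Control rats were normal rats, and no group given the instillation or the oral vehicle alone is named in the labels. Strain, age, doses and times are not given in the sources used here, nor whether each library came from 1 animal, so p-values measure only the spread between these libraries, which may be technical.

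The respiratory chain sits in the inner mitochondrial membrane. Complex I (NADH dehydrogenase) and complex II (succinate dehydrogenase) feed electrons to ubiquinone, complex III passes them to cytochrome c, and complex IV (cytochrome c oxidase) hands them to oxygen. Complex V (ATP synthase) uses the proton gradient built by complexes I, III and IV to make ATP. Mitochondrial DNA encodes core subunits of complexes I, III, IV and V as parts of long polycistronic transcripts, whereas all of complex II and the remaining subunits are nuclear. In lung, alveolar type II cells are rich in mitochondria, while neutrophils hold few and rely mainly on glycolysis.

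Promoters are shown for the paired complex IV isoforms Cox8a and Cox8b, the muscle isoform Cox6a2, and the complex II subunits Sdha and Sdhc. In SJY against control Cox8b and Sdha were lower, and Cox8a, Cox6a2 and Sdhc were higher. Not all of these changes were large, and the calls of Cox8a and Sdha were lost in several alternative fits given below. The promoters are given so that these directions can be set beside their sequence. Each runs 5′ to 3′ on the gene's own strand from 250 bases before to 50 bases after the annotated start, from RefSeq on build GRCr8. Capitals mark matches, on either strand, to the letters of known motifs of 4 factors that are known to act on respiratory chain genes: GCGCA, any base and GCGC for NRF1, CCGGAAGT for GABPA, AAGATGGC for YY1 and TCAAGGTCA for ESRRA.
Cox8a, chr1:213833574-213833873, minus strand: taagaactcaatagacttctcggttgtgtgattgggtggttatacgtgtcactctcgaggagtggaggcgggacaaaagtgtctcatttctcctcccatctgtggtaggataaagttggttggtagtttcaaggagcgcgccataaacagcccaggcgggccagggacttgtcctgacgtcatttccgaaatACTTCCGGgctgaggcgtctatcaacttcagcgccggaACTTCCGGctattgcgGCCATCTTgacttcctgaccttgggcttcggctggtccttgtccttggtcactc
Cox8b, chr1:205408224-205408523, minus strand: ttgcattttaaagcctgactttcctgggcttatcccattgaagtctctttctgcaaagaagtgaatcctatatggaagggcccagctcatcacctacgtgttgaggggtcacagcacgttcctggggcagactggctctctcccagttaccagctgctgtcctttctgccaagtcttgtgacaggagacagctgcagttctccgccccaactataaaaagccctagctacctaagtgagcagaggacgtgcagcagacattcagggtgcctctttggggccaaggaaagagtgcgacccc
Cox6a2, chr1:192219667-192219966, minus strand: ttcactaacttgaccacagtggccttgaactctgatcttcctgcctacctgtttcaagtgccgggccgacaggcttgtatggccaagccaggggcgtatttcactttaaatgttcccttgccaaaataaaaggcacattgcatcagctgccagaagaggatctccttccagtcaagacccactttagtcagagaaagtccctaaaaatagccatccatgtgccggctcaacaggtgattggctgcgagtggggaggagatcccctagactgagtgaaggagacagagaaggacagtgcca
Sdha, chr1:30764303-30764602, plus strand: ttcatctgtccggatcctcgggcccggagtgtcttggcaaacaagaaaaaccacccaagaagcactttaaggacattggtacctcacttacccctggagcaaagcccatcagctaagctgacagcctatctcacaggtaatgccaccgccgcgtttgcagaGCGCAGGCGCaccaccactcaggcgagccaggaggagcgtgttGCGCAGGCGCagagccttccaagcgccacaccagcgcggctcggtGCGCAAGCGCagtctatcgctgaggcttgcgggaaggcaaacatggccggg
Sdhc, chr13:86097976-86098275, minus strand: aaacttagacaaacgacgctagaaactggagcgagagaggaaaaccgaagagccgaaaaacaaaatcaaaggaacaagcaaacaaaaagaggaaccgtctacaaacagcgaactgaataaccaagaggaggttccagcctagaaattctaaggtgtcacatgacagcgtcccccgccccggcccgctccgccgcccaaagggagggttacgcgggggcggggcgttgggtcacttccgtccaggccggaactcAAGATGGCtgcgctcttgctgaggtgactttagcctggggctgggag
Cox8a carried 2 GABPA matches and 1 YY1 match, Sdha 3 NRF1 matches and Sdhc 1 YY1 match. None of the letters occurred in the windows of Cox8b and Cox6a2. Of the 93 different nuclear symbols, 80 were matched to a promoter, and 36 of these 80 (45%) held at least 1 of the 4 motifs, against 10.7% of all 33469 promoters of the same length. NRF1 letters were in 18.8% of member promoters and 4.25% of all promoters, GABPA letters in 10% and 3.81%, YY1 letters in 20% and 3.17%, and ESRRA letters in 2.5% and 0.433%. No promoter held 2 different motifs that shared bases. Among the matched members, 25 of the 55 called higher in SJY than in control held a motif, and so did 11 of the 20 tested members that were not called higher.

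Expression was given as FPKM, read numbers scaled to transcript length and library size. Whole read numbers could be recovered from the FPKM steps, and each library held between 12071450 and 14009983 reads on genes. Of the 110 members, 103 reached 1 FPKM in at least 5 libraries and were tested, all 13 mitochondrial and 90 nuclear. Of the 7 others, 4 were listed at 0 in every library. Ndufa1 and Atp5pb, which encode regular subunits of complexes I and V, had at most 4 and 10 reads in any library, so their values are uncertain as levels. A gene was called where limma's adjusted p over all 13457 tested genes was under 0.05. On these genes 3 libraries stood apart: ALI 1 and, less far, SJY 1 in the mitochondrial transcripts, and control 4, which was the highest control library in nuclear ones. In bulk lung, fewer cells of a type and less RNA per cell cannot be told apart.

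Mitochondrially encoded transcripts were more abundant on average in SJY and in ALI than in control, but with all 15 libraries none of the 13 genes was called in any comparison. The 13 genes together took 11.4, 7.22, 7.09, 6.26 and 6.04% of reads in the SJY libraries 1, 3, 4, 5 and 6. In ALI 1 to 5 they took 27.3, 5.67, 8.25, 4.51 and 4.43%. In control 4 to 8 they took 5.36, 2.61, 4.73, 4.67 and 3.56%. Every SJY library thus lay above every control library, whereas ALI 4 and ALI 5 lay within the control range and ALI 1 far above it. The group means were 7.61 ± 2.19% in SJY, 10.03 ± 9.76% in ALI and 4.19 ± 1.09% in control (SD, n = 5 each), and 5.72 ± 1.78% in the 4 ALI libraries other than ALI 1.

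**Figure D1:**
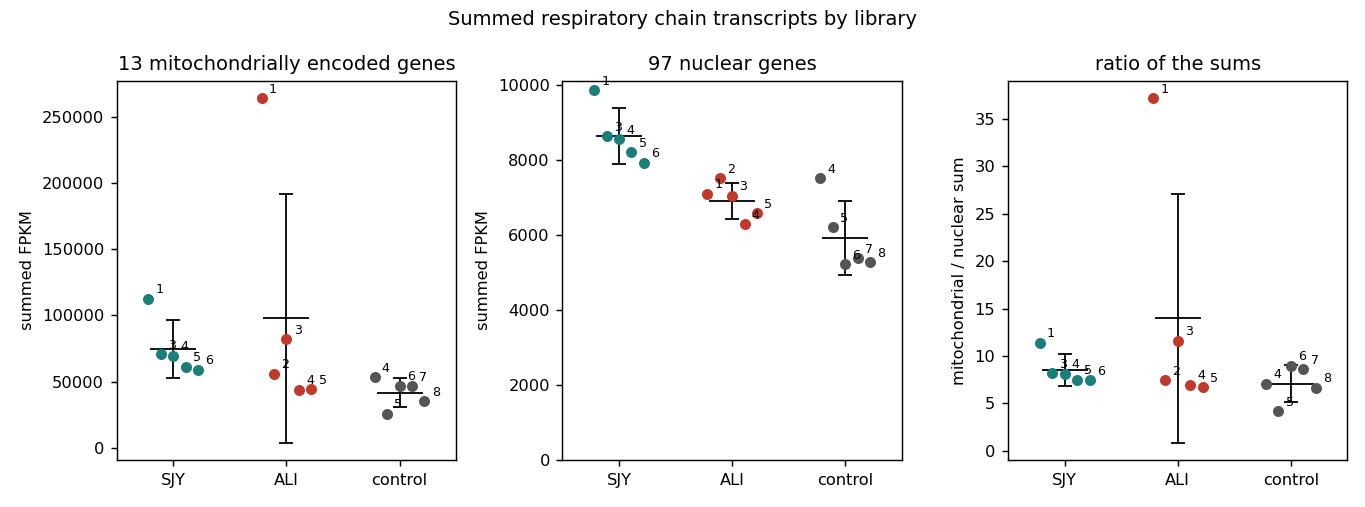
Summed FPKM of the 13 mitochondrially encoded and the 97 nuclear respiratory chain genes, and the ratio of the 2 sums, by library (points numbered by replicate; bars are mean ± SD, n = 5). ALI 1 stands at a ratio of 37.2, and the nuclear sums of all SJY libraries lie above those of all ALI and control libraries.

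ALI against control gave 0 of 13 mitochondrial genes called by limma, with 8 higher before adjustment (p under 0.05), and a median log2 difference of 0.85 (all log2 differences are on the log2(FPKM + 1) scale). In SJY against control 0 were called and 5 were higher before adjustment, with a median of 0.82. In SJY against ALI 0 were called, 0 passed before adjustment, and the median was −0.03. Over all tested genes, 8.02% were called higher and 9.56% lower in ALI against control, 14.6% higher and 18.1% lower in SJY against control, and 0.00743% higher and 0% lower in SJY against ALI. Both comparisons against control use the same 5 control libraries. Without ALI 1, SJY against control had 10 of 13 mitochondrial genes called higher, beside 17.8% of all genes. ALI 1 is in neither group of that comparison, and its median stayed at 0.82. What changed was the spread, which the fit estimates from all 3 groups together. Without ALI 1 the median was 0.42 in ALI against control and 0.35 in SJY against ALI, and 0 genes were called in either by limma, beside 17% and 1.35% of all genes called in either direction. Leaving out SJY 1 instead gave a median of 0.65 in SJY against control, with 0 called.

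Mt-co1, which encodes the catalytic subunit of complex IV, was the most abundant member. It had 26725, 17024, 17418, 15310.3 and 15101 FPKM in SJY, 69356, 13705, 18419, 10751 and 10194 FPKM in ALI, and 12933, 6459, 10838, 10453 and 8682 FPKM in control. All SJY values lay above all control values, and ALI 1 was the highest library by far. SJY against control gave a log2 difference of 0.90 ± 0.41 SE, adjusted p = 0.104 with all libraries and a log2 difference of 0.90 ± 0.21 SE, adjusted p = 0.00384 without ALI 1. ALI against control gave a log2 difference of 0.91 ± 0.41 SE, adjusted p = 0.127 with all libraries and a log2 difference of 0.42 ± 0.23 SE, adjusted p = 0.217 without ALI 1.

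Mt-cyb, the only mitochondrially encoded subunit of complex III, had 11046, 6705, 5925, 5289 and 5084 FPKM in SJY, 28038, 5122, 8269, 4022 and 4172 FPKM in ALI, and 4617, 2490.5, 4392, 4384 and 2899 FPKM in control. Its order of libraries was close to that of Mt-co1, with SJY 1 second to ALI 1. Mt-nd5, which encodes a proton-pumping subunit of complex I, had 2047, 1483, 1435, 1246 and 1144 FPKM in SJY, 4781, 1027, 1798, 1008 and 884 FPKM in ALI, and 783, 461, 1048, 1063 and 735 FPKM in control. Its SJY values all lay above the control values, as did those of Mt-nd1, Mt-nd2, Mt-cyb, Mt-co1, Mt-co3 and Mt-atp6, 7 of 13 genes beside 11.8% of all genes. Without ALI 1 the calls in SJY against control were these 7 with Mt-nd3, Mt-nd4l and Mt-co2, leaving Mt-nd4, Mt-nd6 and Mt-atp8 uncalled.

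The proportions of the abundant mitochondrial transcripts varied less than those of the scarce ones. Mt-co1 made up 22.5 to 26.3% of their summed FPKM in every library, Mt-co2 14.9 to 18.2%, Mt-co3 15.6 to 18.5% and Mt-atp6 10.4 to 12.3%. ALI 1 had the highest share of Mt-co1 among the 15 libraries. Among the scarcer transcripts, Mt-nd3 ran from 1.16 to 2.53%, Mt-nd4l from 0.73 to 1.41%, Mt-nd6 from 0.472 to 1.05% and Mt-nd4 from 0.0805 to 0.643%, each highest in control 5. In ALI 1 the other 11 genes stood at 4.01 to 6.64 times the control median, Mt-nd4 at 1.53 times and Mt-atp8 at 1.36 times. Mt-nd4 had 94.7, 69.5, 137, 111 and 73.2 FPKM in SJY, 253, 140.4, 65.96, 208 and 41.3 FPKM in ALI, and 172, 166, 139, 78.6 and 203 FPKM in control, far below the 344 to 549.5 FPKM of its neighbour Mt-nd4l in control. Mt-atp8 rested on only 5 to 22 reads per library. Both overlap a neighbouring coding region, Mt-nd4l and Mt-atp6, so reads may have been divided between the partners and their values are uncertain.

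**Figure D2:**
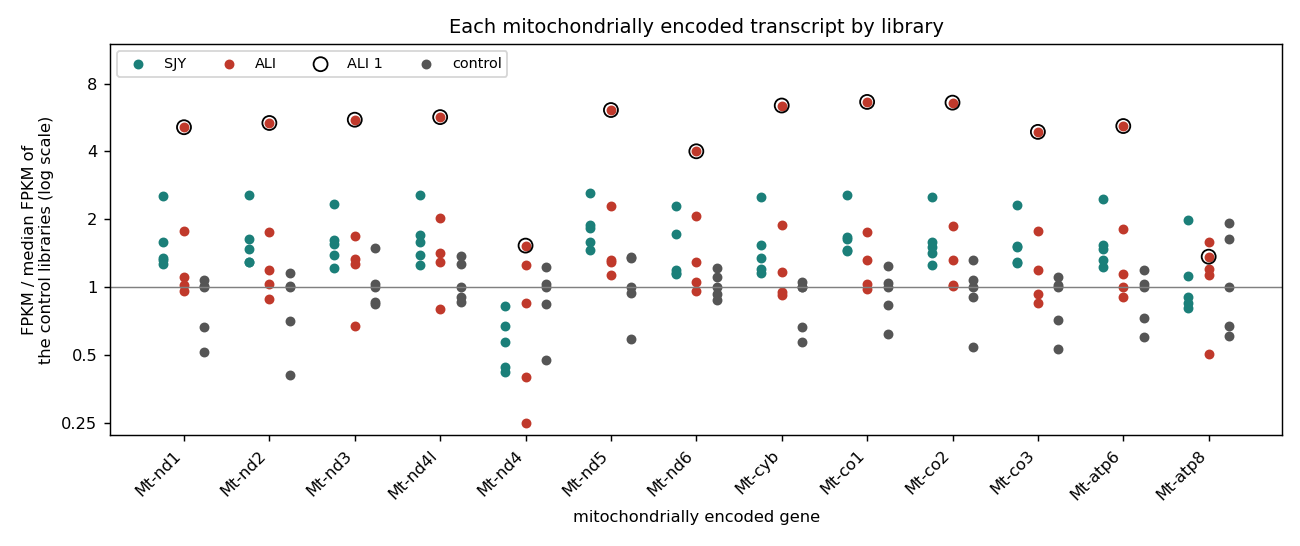
FPKM of each mitochondrially encoded gene in each library divided by the median of the 5 control libraries (log scale; ALI 1 is circled). In ALI 1, 11 genes lie at 4.01 to 6.64 times the control median, whereas Mt-nd4 and Mt-atp8 lie at 1.53 and 1.36 times.

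Nuclear respiratory chain genes rose broadly in SJY against control. Of 90 tested, 64 were called higher and 3 lower, beside 14.6% and 18.1% of all genes. Their median log2 difference was 0.57, against −0.11 over all genes, and 43 had all SJY values above all control values (11.8% of all genes) while 2 had all below (15.9%). Summed FPKM of the nuclear members was 9863, 8637, 8550.0, 8207 and 7927 in SJY, 7102, 7512, 7051, 6295 and 6589 in ALI, and 7514, 6208, 5219, 5386 and 5272 in control. The SJY sums did not overlap those of ALI or control. Control 4 was level with the highest ALI library, and the other 4 control libraries lay below all ALI libraries. In SJY against control 58 members were called higher and 1 lower without SJY 1, 66 and 3 without control 4, and 64 and 5 without ALI 1. The share of all genes called higher was 13.6%, 15.3% and 17.8% in these 3 fits. The count called higher was 38 after rescaling each library to its summed FPKM, where the median over all genes was −0.30 in place of −0.11 and 8.04% of all genes were called higher.

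In ALI against control a smaller set of nuclear members rose. limma called 14 higher and 1 lower, beside 8.02% and 9.56% of all genes, with a median log2 difference of 0.24 against −0.12 over all genes. The count called higher was 38 without control 4 (9.3% of all genes), 4 without control 7 (6.12% of all genes) and 9 without ALI 1 (9.1% of all genes), so that without control 7 the members' share was below that of all genes. It was 3 with each library rescaled to its summed FPKM, where the median over all genes was −0.28 and 4.56% of all genes were called higher, a larger share than among the members. It was 18 with median-of-ratios scaling, where the median over all genes was near 0 and 10.9% of them were called higher. All ALI values lay above all control values for 6 members and below for 1, beside 6.17% and 6.73% of all genes. SJY against ALI had 0 nuclear members called by limma in either direction, beside 0.00743% and 0% of all genes. Its median was 0.33 against 0.03 over all genes, 45 members were higher and 1 lower before adjustment (p under 0.05), and 30 had all SJY values above all ALI values and 0 all below, beside 2.24% and 0.988% of all genes. Without ALI 1, 0 members were called higher or lower in SJY against ALI, beside 0.884% and 0.461% of all genes.

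**Figure D3:**
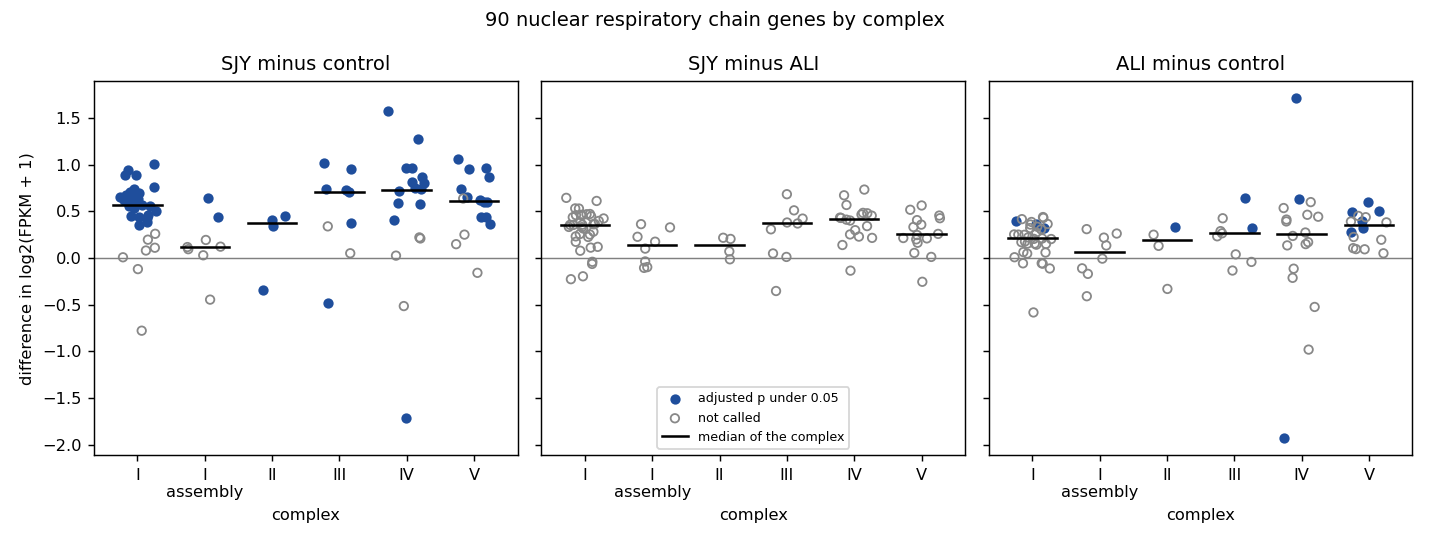
Log2 difference of each of the 90 tested nuclear members by complex in SJY minus control, SJY minus ALI and ALI minus control (filled points, adjusted p under 0.05; lines, medians). In SJY minus control 64 points are called above 0 and 3 below, and in SJY minus ALI none is called.

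Most accessory subunits of complex I rose in SJY, and fewer of its catalytic core subunits did. Of 35 nuclear subunits tested, 28 rose (80%) in SJY against control and none fell, beside 14.6% and 18.1% of all genes. Their median was 0.57, with a range from −0.78 (the second Ndufv3 entry, not called) to 1.01 (Ndufa13). In ALI against control 3 rose (8.57%, near the 8.02% of all genes) and none fell. The 7 nuclear core subunits, which form the electron-transfer arm, had 3 called higher (Ndufs8, Ndufv2 and Ndufs3) and a median of 0.26. The 28 accessory subunits had 25 called higher and a median of 0.61. The core subunits Ndufs1 and Ndufv1 had log2 differences of 0.11 and 0.01 and were not called. A difference between the 2 kinds of subunit was not tested.

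Ndufa13, an accessory subunit also known as GRIM-19, had 161, 152, 152, 153 and 128 FPKM in SJY, 98.3, 116, 102, 79.8 and 82.9 FPKM in ALI, and 108, 80.3, 66.9, 65.1 and 56.7 FPKM in control. Its SJY values all exceeded the ALI and the control values. SJY against control gave a log2 difference of 1.01 ± 0.16 SE, adjusted p = 0.000293, and SJY against ALI a log2 difference of 0.65 ± 0.16 SE, adjusted p = 0.164. Ndufs8, a core iron-sulfur subunit, rose in both comparisons with control. It averaged 70.5 ± 7.35 FPKM in SJY, 60.2 ± 7.87 FPKM in ALI and 45.5 ± 7.46 FPKM in control (SD, n = 5 each), with a log2 difference of 0.63 ± 0.12 SE, adjusted p = 0.00184 in SJY and a log2 difference of 0.40 ± 0.12 SE, adjusted p = 0.0365 in ALI. The ALI call of Ndufs8 was lost without any 1 of ALI 2, ALI 3 and control 5, 6, 7 or 8 (adjusted p from 0.0507 to 0.0972). Ndufb4, the most abundant nuclear complex I transcript, averaged 166 ± 31.6 FPKM in SJY, 119 ± 17.8 FPKM in ALI and 108 ± 27.1 FPKM in control and rose in SJY against control (log2 difference 0.62, adjusted p = 0.0145).

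Assembly factors of complex I help build it and are not part of it. Of 8 tested, with log2 differences from −0.45 to 0.64, Ndufaf7 (0.44) and Ndufaf8 (0.64) rose in SJY against control (25%, beside 14.6% of all genes) and none was called in ALI against control. Ndufaf7 is a methyltransferase needed to assemble the complex. It averaged 9.16 ± 1.296 FPKM in SJY, 7.96 ± 0.559 FPKM in ALI and 6.55 ± 1.38 FPKM in control, and its SJY and control values overlapped.

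Complex II split between its subunits. Sdha, the flavoprotein that oxidises succinate, was lower in the SJY libraries, while the iron-sulfur subunit Sdhb and the membrane anchors Sdhc and Sdhd were higher. Sdha had 58.3, 64.9, 61.4, 64.00 and 68.1 FPKM in SJY, 49.5, 70.3, 58.2, 75.3 and 69.5 FPKM in ALI, and 76.1, 87.9, 73.1, 80.2 and 86.7 FPKM in control. Every SJY value lay below every control value, and ALI overlapped control. The log2 difference of −0.34 ± 0.11 SE, adjusted p = 0.0297 in SJY against control and the log2 difference of −0.33 ± 0.11 SE, adjusted p = 0.0548 in ALI against control were close in size, and ALI missed the threshold.

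Sdhb had 98.8, 109, 110.4, 98.7 and 103 FPKM in SJY, 79.4, 103, 87.7, 93.8 and 87.3 FPKM in ALI, and 90.4, 66.9, 71.8, 76.3 and 73.9 FPKM in control. It rose in SJY against control (log2 difference 0.46, adjusted p = 0.00348) with no overlap between these groups. Sdhc had 97.4, 96.3, 86.2, 98.3 and 93.4 FPKM in SJY, 93.8, 89.8, 83.9, 92.5 and 88.4 FPKM in ALI, and 81.7, 70.3, 63.9, 70.6 and 68.1 FPKM in control, and it was the complex II gene called in both comparisons with control (0.41 in SJY and 0.34 in ALI). Sdhd had 98.9, 88.8, 97.8, 84.1 and 84.3 FPKM in SJY, 68.4, 85.9, 72.8, 81.9 and 80.99 FPKM in ALI, and 78.5, 70.4, 67.02, 71.9 and 67.4 FPKM in control and rose in SJY against control (log2 difference 0.35, adjusted p = 0.011). The fall of Sdha was not called with median-of-ratios scaling (log2 difference −0.23, adjusted p = 0.0906), nor without any 1 of SJY 1, 3 or 4 and control 5, 7 or 8 (adjusted p from 0.0505 to 0.0713). The rises of Sdhb, Sdhc and Sdhd were not called after rescaling to the summed FPKM (adjusted p from 0.157 to 0.422), where their directions stayed the same.

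A ratio within each library does not depend on scaling. Sdha divided by the mean of Sdhb, Sdhc and Sdhd was 0.593, 0.663, 0.626, 0.683 and 0.727 in SJY, 0.615, 0.756, 0.714, 0.842 and 0.813 in ALI, and 0.911, 1.27, 1.08, 1.099 and 1.24 in control. All SJY and all ALI ratios lay below all control ratios. This ratio was chosen after the values were seen and is given without a test. The Sdha transcript is the longest of the 4, at 2277 bases against 980.0 to 1220.0 bases, as implied by the values.

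In complex III a small subunit rose most and a large core protein fell. Of 9 nuclear genes, 6 rose (66.7%) and 1 fell in SJY against control, beside 14.6% and 18.1% of all genes, with a median of 0.71. In ALI against control 2 rose (22.2%, beside 8.02% of all genes). Uqcrq, which encodes a small subunit next to cytochrome b, had 77.03, 54.7, 57.4, 53.6 and 47.8 FPKM in SJY, 56.1, 47.9, 46.5, 35.1 and 38.1 FPKM in ALI, and 40.1, 31.2, 24.7, 23.3 and 23.1 FPKM in control. Its SJY values all exceeded the control values and its ALI values overlapped both groups, with a log2 difference of 1.02 ± 0.17 SE, adjusted p = 0.000645 in SJY against control and a log2 difference of 0.65 ± 0.17 SE, adjusted p = 0.0183 in ALI against control. Uqcrfs1, the Rieske iron-sulfur protein, also rose in both (0.37 in SJY and 0.32 in ALI), but its ALI call did not hold without control 7. Uqcrc2, a large core protein, had 24.4, 31.3, 32.7, 38.2 and 40.6 FPKM in SJY, 32.5, 36.99, 37.5, 55.8 and 53.99 FPKM in ALI, and 45.99, 34.97, 47.4, 51.03 and 56.1 FPKM in control. Its SJY and control values overlapped, and the fall in SJY against control was close to the threshold (log2 difference of −0.49 ± 0.18 SE, adjusted p = 0.0449). The ALI call of Uqcrq was lost without control 7 (adjusted p = 0.0524) or control 8 (0.0511). The call of Uqcrc2 was lost without any 1 of SJY 1, 3 or 4, ALI 2 and control 4, 6, 7 or 8 (adjusted p from 0.0509 to 0.118). The other large core protein, Uqcrc1, had a log2 difference of 0.05 in SJY against control and was not called. Uqcrh, the hinge protein and the most abundant nuclear complex III transcript, averaged 124 ± 19.98 FPKM in SJY, 94.9 ± 13.8 FPKM in ALI and 98.4 ± 19.5 FPKM in control and was not called.

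Complex IV had the largest changes of single genes. Of 18 nuclear members tested, 13 rose (72.2%) and 1 fell in SJY against control, beside 14.6% and 18.1% of all genes, with a median of 0.73. In ALI against control 2 rose (11.1%, near the 8.02% of all genes) and 1 fell, beside 9.56% of all genes lower. Cox4i1, the most abundant nuclear member of the complex and its ubiquitous subunit 4, had 533, 446, 449, 421 and 419.8 FPKM in SJY, 329, 394, 380.0, 282 and 326 FPKM in ALI, and 400.5, 328, 258, 285 and 260.0 FPKM in control. All SJY values exceeded all ALI and control values, with a log2 difference of 0.58 ± 0.14 SE, adjusted p = 0.00493 in SJY against control. Cox7b, a small structural subunit, had 36.9, 15.6, 24.1, 17.3 and 17.5 FPKM in SJY, 12.3, 15.8, 16.5, 8.51 and 12.97 FPKM in ALI, and 15.4, 8.897, 5.16, 7.09 and 7.02 FPKM in control. Its lowest SJY value lay just above the highest control value, and its log2 difference of 1.27 ± 0.27 SE, adjusted p = 0.00266 was the second largest rise among nuclear members. Cox5b, which binds zinc, rose by 0.97 and the main Cox6b1 entry (ENSRNOG00000024309) by 0.96 on the log2 scale in SJY against control. That Cox6b1 entry averaged 235 ± 26.5 FPKM in SJY, 158 ± 19.6 FPKM in ALI and 122 ± 26.5 FPKM in control. Cox6b1, Uqcrb, Ndufv3 and Ndufa10l1 each stood on 2 lines of the table, so reads may have been divided between near-identical copies.

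Ndufa4, named for complex I but a subunit of complex IV, had 65.9, 46.3, 45.2, 44.9 and 41.8 FPKM in SJY, 37.1, 39.4, 46.1, 39.2 and 43.3 FPKM in ALI, and 37.4, 25.8, 28.3, 22.99 and 18.7 FPKM in control. It rose in both comparisons with control (0.87 in SJY and 0.64 in ALI). Its paralog Ndufa4l2, which hypoxia induces in other cells, had 20.97, 9.69, 9.31, 16.4 and 9.597 FPKM in SJY, 0.631, 18.9, 8.67, 13.4 and 18.7 FPKM in ALI, and 17.9, 29.9, 22.4, 16.9 and 9.89 FPKM in control and was not called. ALI 1 was the lowest library at 0.631 FPKM. Cox4i2, the subunit 4 isoform enriched in lung, behaved likewise in that library. It had 36.7, 34.2, 27.1, 41.6 and 32.6 FPKM in SJY, 4.65, 38.05, 18.7, 30.04 and 30.02 FPKM in ALI, and 37.2, 44.3, 27.1, 28.5 and 16.98 FPKM in control and was not called. The smooth muscle and pericyte markers summed to 223 FPKM in ALI 1, against 713 to 785 FPKM in the other ALI libraries, and the part of such cells in these 2 values was not tested.

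The muscle isoforms Cox6a2 and Cox8b went in opposite directions. Cox8b, which replaces Cox8a in rodent heart, skeletal muscle and brown fat, had 0.723, 0.458, 0.519, 1.15 and 0.233 FPKM in SJY, 0, 0.239, 0.237, 0.224 and 1.56 FPKM in ALI, and 5.16, 6.17, 3.87, 2.72 and 3.85 FPKM in control. These came from 3, 2, 2, 5 and 1 reads in SJY, 0, 1, 1, 1 and 6 reads in ALI, and 21, 25, 15, 11 and 15 reads in control. All SJY and ALI values lay below all control values, with a log2 difference of −1.72 ± 0.25 SE, adjusted p = 0.000162 in SJY and a log2 difference of −1.93 ± 0.25 SE, adjusted p = 0.000107 in ALI. Cox8b met the filter through the control libraries, which were all above 1 FPKM. Of the other libraries only SJY 5 (1.15 FPKM) and ALI 5 (1.56 FPKM) reached 1 FPKM. The filter thus selected it for high control values, so these p-values are no independent support for a fall. Cox8b stood at 0.312 ± 0.166% of Cox8a in SJY, 0.288 ± 0.402% in ALI and 2.91 ± 0.534% in control. The ubiquitous Cox8a had 242, 174, 186, 197 and 173 FPKM in SJY, 178, 175, 168, 135 and 156 FPKM in ALI, and 191, 168, 129.6, 123 and 128 FPKM in control and rose in SJY against control (log2 difference 0.40, adjusted p = 0.0378). That call was lost with median-of-ratios scaling (adjusted p = 0.0554), after rescaling to the summed FPKM (0.242) and without any 1 of SJY 1, 4 or 5 and control 6, 7 or 8 (0.0582 to 0.101).

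Cox6a2, the heart and skeletal muscle isoform of subunit 6a, had 4.21, 3.08, 3.14, 5.58 and 4.22 FPKM in SJY, 6.42, 3.86, 8.13, 2.404 and 3.31 FPKM in ALI, and 1.32, 0.663, 0, 1.16 and 0.517 FPKM in control. All SJY and ALI values lay above all control values, with a log2 difference of 1.58 ± 0.28 SE, adjusted p = 0.000807 in SJY and a log2 difference of 1.71 ± 0.28 SE, adjusted p = 0.000799 in ALI. Cox6a2 met the filter through the SJY and ALI libraries, which were all above 1 FPKM. Of the control libraries only control 4 (1.32 FPKM) and control 7 (1.16 FPKM) reached 1 FPKM. The filter thus selected it for high SJY and ALI values, so these p-values are no independent support for a rise. The ubiquitous Cox6a1 averaged 358 ± 29.5 FPKM in SJY, 261 ± 24.6 FPKM in ALI and 242 ± 58.1 FPKM in control, so Cox6a2 was 1.13 ± 0.2595% of it in SJY, 1.87 ± 0.9599% in ALI and 0.301 ± 0.223% in control. In the GRCr8 gene order Cox6a2 lies beside the leukocyte integrin genes Itgad, Itgax and Itgam. Itgam had 16.9 to 30.5 FPKM in SJY, 19.1 to 28.0 FPKM in ALI and 4.74 to 7.38 FPKM in control. The nearer Itgax had 13.4 to 23.5 FPKM in SJY, 14.6 to 23.1 FPKM in ALI and 7.74 to 15.4 FPKM in control, so that the groups overlapped. Armc5, on the other side, had 20.9 to 27.5 FPKM in SJY, 13.8 to 24.4 FPKM in ALI and 20.2 to 30.4 FPKM in control. The part of these neighbours in the Cox6a2 values was not tested. Cox7a1 and Cox6b2 are further tissue isoforms, of muscle and of testis. Cox7a1 reached at most 9 reads in a library and was not tested, and Cox6b2 averaged 7.99 ± 1.49 FPKM in SJY, 5.97 ± 2.49 FPKM in ALI and 6.94 ± 2.48 FPKM in control and was not called.

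Of the 20 heart muscle markers, 6 were tested, and 2 of these (Myl4 and Tnnc1) rose in both comparisons with control. This was 33.3% in each, beside 14.6% of all genes in SJY and 8.02% in ALI. The 20 heart muscle markers summed to 28.9 to 46.1 FPKM in SJY, 11.3 to 58.0 FPKM in ALI and 19.7 to 35.6 FPKM in control. Myl2 was at 0 in all SJY and ALI libraries, Nppb in all SJY and control libraries, Ckmt2 in all SJY libraries and Nppa in all control libraries. Of 9 skeletal muscle markers 4 were tested, with log2 differences from −0.10 to 0.73 in SJY against control, none called by limma. Their sums ran from 18.5 to 39.0 FPKM in SJY, 13.6 to 41.8 FPKM in ALI and 24.3 to 32.2 FPKM in control, and Myot at 0 in every library. The 7 fat markers had median sums of 5.46 FPKM in SJY, 7.28 FPKM in ALI and 6.78 FPKM in control, with the brown fat marker Ucp1 at 0 in all SJY and all control libraries. Of the 2 tested, Cidec, a lipid droplet protein, fell in SJY against control (log2 difference −0.53) and Cidea was not called (−0.08). The part of such cells in the Cox6a2 and Cox8b values was not tested.

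**Figure D4:**
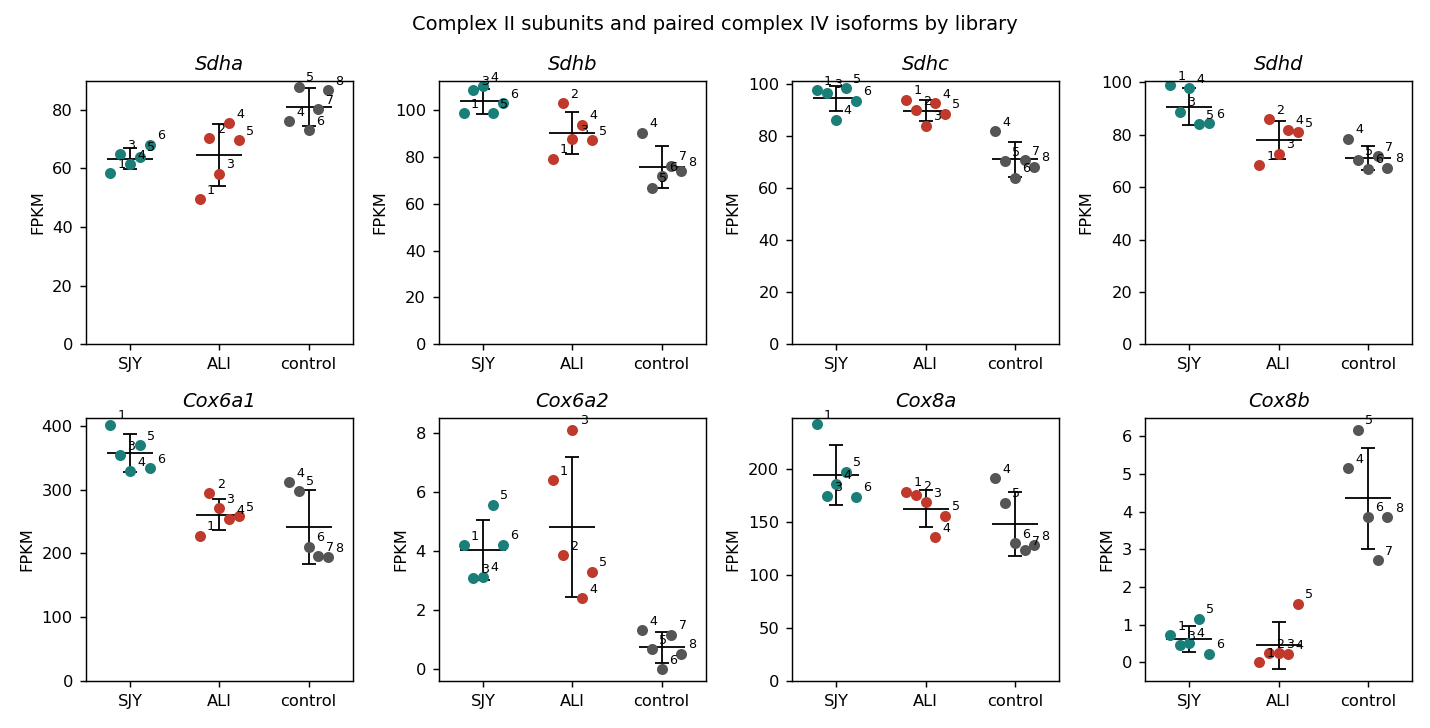
FPKM of the 4 complex II subunits and of 2 pairs of complex IV isoforms in each library (points numbered by replicate; bars are mean ± SD, n = 5). Sdha is lower and Sdhb, Sdhc and Sdhd are higher in SJY than in control; Cox6a2 is higher and Cox8b lower in all SJY and ALI libraries than in all control libraries.

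Most complex V genes rose in SJY, and the 2 large catalytic head subunits were not called. Of 16 tested genes, 12 rose (75%) and none fell in SJY against control, beside 14.6% and 18.1% of all genes, with a median of 0.61. In ALI against control 6 rose (37.5%, beside 8.02% of all genes), with a median of 0.35. Atp5mf, subunit f of the membrane part, had 457, 352, 337, 312 and 293 FPKM in SJY, 246, 283, 236, 194 and 219.6 FPKM in ALI, and 238, 159, 155, 146 and 144 FPKM in control. All SJY values exceeded all ALI and control values, and control 4 was far above the other control libraries. SJY against control gave a log2 difference of 1.06 ± 0.16 SE, adjusted p = 0.000212 and ALI against control a log2 difference of 0.50 ± 0.16 SE, adjusted p = 0.0395. Atp5f1e, the small epsilon subunit of the central stalk, had 480.4, 339.5, 347, 298 and 293 FPKM in SJY, 287, 265, 261, 201 and 204 FPKM in ALI, and 268, 204, 149.6, 143 and 145 FPKM in control and rose in SJY against control (log2 difference of 0.97 ± 0.19 SE, adjusted p = 0.00159). Atp5pf, a subunit of the peripheral stalk, averaged 122 ± 22.2 FPKM in SJY, 88.3 ± 11.3 FPKM in ALI and 63.1 ± 17.4 FPKM in control and rose in both comparisons with control (0.96 in SJY and 0.50 in ALI).

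The proton-carrying c ring is made from 3 genes that encode the same mature protein. Atp5mc1 had 79.9, 98.8, 106, 93.6 and 96.8 FPKM in SJY, 126, 94.1, 97.7, 82.8 and 76.1 FPKM in ALI, and 73.7, 68.6, 58.1, 58.9 and 50.3 FPKM in control and rose in both comparisons (0.62 in SJY and 0.60 in ALI), with no overlap with control in either. Atp5mc3 averaged 156 ± 8.27 FPKM in SJY, 136 ± 17.4 FPKM in ALI and 103 ± 16.7 FPKM in control and also rose in both (0.61 in SJY and 0.39 in ALI). Atp5mc2 had a log2 difference of 0.25 in SJY against control and was not called. Atp5if1, the inhibitor of ATP hydrolysis by the complex, rose by 0.86 in SJY against control. The catalytic Atp5f1b had 314, 344, 344, 326 and 342 FPKM in SJY, 332, 317, 307, 337 and 315 FPKM in ALI, and 328, 312, 280.1, 304 and 283 FPKM in control, a narrow range in every group, and a log2 difference of 0.15 ± 0.08 SE, adjusted p = 0.181. Its partner Atp5f1a had a log2 difference of −0.16 and was not called. The ALI calls of Atp5mf, Atp5pf and Atp5mc3 were each lost without any 1 of ALI 1, 2 or 3 and control 5, 6, 7 or 8 (adjusted p from 0.0512 to 0.103). Among the ALI calls described, those of Cox6a2, Cox8b, Ndufa4, Atp5mc1 and Sdhc held with any 1 of the 15 libraries left out. For Cox8b and Cox6a2 the limit set by the filter, given above, remains.

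In SJY against ALI, where no member was called, the members with all SJY values above all ALI values were 14 of 35 in complex I, 1 of 8 among its assembly factors, 0 of 4 in complex II, 3 of 9 in complex III, 5 of 18 in complex IV and 7 of 16 in complex V, beside 2.24% of all genes. Ndufa13, Cox4i1, Atp5mf and Atp5f1e were among them.

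Short transcripts held more of the rises than long ones. Lengths implied by the FPKM and the recovered reads ran from 261 to 7359 bases over the 90 tested nuclear members, with a median of 718.5 bases against 2303.5 bases for the other tested genes. In SJY against control, members under 500 bases were called higher in 84% of 25 genes. Those from 500 to under 1000 bases were called higher in 87.9% of 33 genes. From 1000 to under 1500 bases the share was 66.7% of 15 genes, and from 1500 bases on it was 23.5% of 17 genes. The other tested genes showed shares of 19.8%, 34.1%, 25.1% and 9.77% in the same 4 ranges. Spearman's rho between length and log2 difference was −0.50 across the 90 members and −0.31 across the 13354 other genes in SJY against control, as a description across genes that share their libraries. The part of length in the members' differences was not tested.

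**Figure D5:**
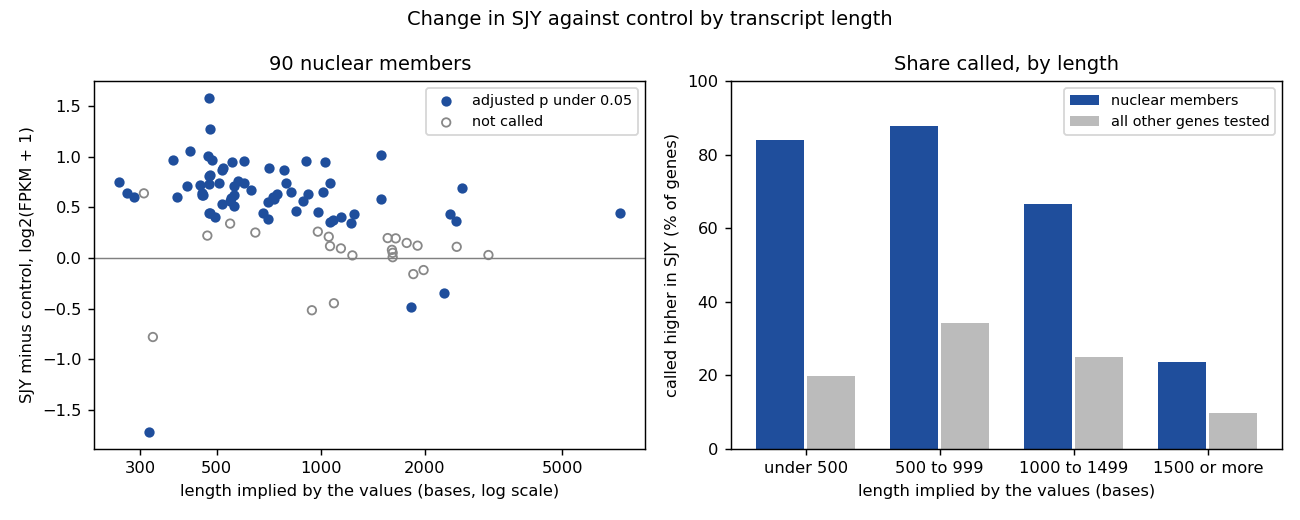
Left, log2 difference in SJY minus control of the 90 tested nuclear members against the length implied by their values (log scale). Right, the percentage of genes called higher in SJY than in control by length, for nuclear members and for all other tested genes: members run from 87.9% at 500 to under 1000 bases down to 23.5% at 1500 bases or more.

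Ribosomal protein genes also rose in SJY. Of 89 cytosolic ribosome genes tested, 40 (44.9%, beside 14.6% of all genes) rose in SJY against control, with a median of 0.39 and none lower. In ALI against control 5 rose (5.62%, below the 8.02% of all genes), with a median of 0.16 and none lower. Of 73 mitochondrial ribosome genes, 47 rose in SJY against control (64.4%, median 0.46) and 11 in ALI against control (15.1%, median 0.28), with none lower. Mrps6, a small-subunit protein, averaged 35.1 ± 3.06 FPKM in SJY, 29.9 ± 12.96 FPKM in ALI and 13.4 ± 1.404 FPKM in control (log2 difference 1.33 in SJY and 1.01 in ALI, each against control). The summed FPKM of nuclear respiratory members divided by that of cytosolic ribosome genes was 0.224, 0.221, 0.212, 0.232 and 0.212 in SJY, 0.177, 0.215, 0.182, 0.221 and 0.217 in ALI, and 0.197, 0.206, 0.196, 0.193 and 0.191 in control. All SJY ratios lay above all control ratios, and the ALI ratios lay on both sides.

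Of 13 regulators of the chain tested, 2 rose (15.4%) and 4 fell (30.8%) in SJY against control, beside 14.6% and 18.1% of all genes. In ALI against control 0 rose and 4 fell (30.8%), beside 8.02% and 9.56% of all genes. Ppargc1a, the coactivator PGC-1alpha that drives mitochondrial gene expression, averaged 0.743 ± 0.305 FPKM in SJY, 0.841 ± 0.429 FPKM in ALI and 2.49 ± 0.665 FPKM in control and fell in both (log2 difference −0.99 in SJY and −0.94 in ALI). Prkaa2, a catalytic subunit of the energy sensor AMPK, averaged 0.8405 ± 0.304 FPKM in SJY, 1.16 ± 0.387 FPKM in ALI and 4.49 ± 1.86 FPKM in control and fell in both (−1.50 in SJY and −1.28 in ALI). The SJY means of Ppargc1a and Prkaa2 and the ALI mean of Ppargc1a lay under the 1 FPKM of the filter. The filter thus kept these 2 genes largely for their control values, so their calls are no independent support for a fall. Nrip1, a corepressor of respiratory genes, fell by 0.68 in SJY and by 0.70 in ALI. Esrra, the nuclear receptor ERR-alpha, averaged 22.8 ± 0.858 FPKM in SJY, 19.7 ± 4.46 FPKM in ALI and 14.7 ± 2.29 FPKM in control and rose in SJY against control (0.61, adjusted p = 0.00414), as did Gabpb1 (0.28), a partner of GABPA.

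Of 28 genes for copying and expressing mitochondrial DNA, 1 rose and 1 fell in SJY against control (3.57% each way, below the shares of all genes), and by limma 0 were called in ALI against control, with log2 differences from −0.45 to 0.40. The DNA polymerase Polg fell to 8.91 ± 1.197 FPKM in SJY, against 16.7 ± 3.71 FPKM in control (SD, n = 5 each). The single-stranded DNA binding protein Ssbp1 was 41.5 ± 1.81 FPKM in SJY, against 25.9 ± 6.09 FPKM in control, and rose. Cycs, the cytochrome c that links complexes III and IV, averaged 86.1 ± 7.697 FPKM in SJY, 80.6 ± 27.2 FPKM in ALI and 46.6 ± 10.9 FPKM in control and rose in both comparisons (0.90 in SJY and 0.75 in ALI). Among the 19 electron carriers and ubiquinone genes, 7 rose (36.8%) and 2 fell (10.53%) in SJY, beside 14.6% and 18.1% of all genes. In ALI 1 rose and 1 fell (5.26% each way, below the 8.02% and 9.56% of all genes).

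Among 43 assembly factors outside the naming rule, 15 rose (34.9%) and 3 fell (6.98%) in SJY and 2 rose (4.65%) in ALI, each against control. The shares of all genes called higher and lower were 14.6% and 18.1% in SJY and 8.02% and 9.56% in ALI, and the counts of the next lists stand beside the same shares. Cox17, a copper carrier for complex IV, rose in SJY (0.87), and Pet100, a complex IV chaperone, in both (0.93 in SJY and 0.70 in ALI). Of 29 import and carrier genes, 14 rose (48.3%) and 2 fell (6.9%) in SJY and 5 rose (17.2%) in ALI. Slc25a5, an ADP/ATP carrier, rose in ALI (0.59), and the chaperone Hspa9 fell in SJY (−0.70). Of 18 citric acid cycle genes, 4 rose (22.2%) and 2 fell (11.1%) in SJY and 2 rose (11.1%) in ALI. Mdh2 rose in both (0.54 in SJY and 0.38 in ALI), and Pdha1, of the pyruvate dehydrogenase complex, fell in SJY (−0.54). Of 17 fission, fusion and mitophagy genes, 2 rose and 2 fell in SJY (11.8% each way, below the shares of all genes) and 2 fell (11.8%) in ALI, the fission adaptor Mff in both (−0.63 in SJY and −0.70 in ALI). Of 11 hypoxia targets, 2 rose (18.2%) and 1 fell (9.09%) in SJY, and 2 rose (18.2%) and 3 fell (27.3%) in ALI. In SJY against ALI none of the genes in these lists was called by limma with all libraries.

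Marker genes of other lung cells differed between the groups too. The 12 neutrophil markers summed to 8449 to 14961 FPKM in SJY, 2248 to 23415 FPKM in ALI and 153 to 249 FPKM in control, with Ltf at 0 in all SJY libraries. Without ALI 1 the ALI range ended at 7329 FPKM, below every SJY library. In that fit 7 of the 10 tested neutrophil markers were called higher in SJY than in ALI, beside 0.884% of all genes. With all libraries 0 of the 10 were called in SJY against ALI. The 8 alveolar type I markers summed to 1592 to 2557 FPKM in SJY, 673 to 2175 FPKM in ALI and 3034 to 4241 FPKM in control. The 9 alveolar type II markers, Sftpc among them, summed to 17796 to 20302 FPKM in SJY, 6109.8 to 21121 FPKM in ALI and 16559 to 25299 FPKM in control, and none was at 0 in any group. Against control, 4 of the 9 were called lower in SJY (44.4%, log2 differences down to −1.39) and 3 in ALI (33.3%). None was called higher, and 18.1% of all genes were called lower in SJY and 9.56% in ALI. The 9 macrophage markers summed to 421 to 641 FPKM in SJY, 247 to 882 FPKM in ALI and 258 to 368 FPKM in control, with Marco at 0 in all control libraries. The 9 ciliated cell markers summed to 385 to 479 FPKM in SJY, 211 to 394 FPKM in ALI and 474 to 545 FPKM in control. The part of these cells in the respiratory chain differences was not tested.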

How the data were processed

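The deposited table gave FPKM per gene for the 15 libraries (poly-A selection and strand not given in the sources used here). How the authors made these FPKM values is known only in part: StringTie, HISAT2, cutadapt and the build Rnor_6.0 are listed, without versions or settings, per the submitters' processing notes. Total RNA came from TRIzol extraction, and an NEBNext Ultra kit was used to build libraries from it, per the labels' protocols. FPKM scales each library to its own total, so a library rich in mitochondrial reads shows lower values elsewhere.

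Whole reads were recovered from the FPKM steps for 17842 of 17842 genes with at least 2 values above 0, within 0.002 read. They gave depths and gene lengths, and no test was run on them. Differences were tested with limma 3.58.1 in R 4.3.3 (trend and robust settings, all 3 groups in 1 fit) on log2(FPKM + 1), which understates the change of low genes. Genes needed 1 FPKM in at least 5 libraries. P-values were adjusted by Benjamini-Hochberg over 13457 genes, with a threshold of 0.05, and the fit was tested on simulated data. Promoter letters were searched in RefSeq windows on GRCr8, matched by symbol. Of 294 symbols in the other gene lists, 282 were found in the table. Members and lists were chosen with earlier results of these data known. Named members were the mitochondrial genes, up to 8 called genes with the largest rise and fall per comparison, the most abundant gene of each complex, complex II and the isoform pairs. Other genes were named after their values were seen. Alternatives covered scaling, pseudocount, filters, moderation, weights, replicate numbers and leaving out each library.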

Additional observations from a re-analysis of the deposited data

Results flagged for a closer look

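In 180 groups of 5 libraries, over 60 results, the highest or lowest library was set against the rest. In 31 groups its gap to the nearest other library exceeded 0.71 of the group's range. For normally distributed values chance alone flags about 1 in 20 groups. The cut was applied to untransformed values, for which that rate need not hold. The mitochondrial genes also share their libraries and are not independent. No explanation was tested.

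Most of these were the mitochondrial transcripts of SJY 1 and ALI 1, each the highest library of its group. The summed FPKM of the mitochondrially encoded genes was 112560.0 in SJY 1 and 264100.0 in ALI 1. The ratio of mitochondrial to nuclear summed FPKM was 11.4 in SJY 1 and 37.2 in ALI 1. In SJY 1 the single genes were Mt-nd1 (9289 FPKM), Mt-nd2 (9686 FPKM), Mt-cyb (11046 FPKM), Mt-co1 (26725 FPKM), Mt-co2 (17794 FPKM), Mt-co3 (19392 FPKM) and Mt-atp6 (12962 FPKM). In ALI 1 they were Mt-nd1 (18701 FPKM), Mt-nd2 (20198 FPKM), Mt-nd3 (4204 FPKM), Mt-nd4l (2286 FPKM), Mt-nd5 (4781 FPKM), Mt-cyb (28038 FPKM), Mt-co1 (69356 FPKM), Mt-co2 (46482 FPKM), Mt-co3 (41150.0 FPKM) and Mt-atp6 (27393 FPKM). Mt-atp8 was highest in SJY 5 at 7.94 FPKM, which rests on few reads.

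Among nuclear genes, SJY 1 was the highest SJY library for Cox4i1 (533 FPKM), Ndufa4 (65.9 FPKM) and Atp5f1e (480.4 FPKM). SJY 6 was the lowest SJY library for Ndufa13 (128 FPKM). ALI 5 was the highest ALI library for Cox8b (1.56 FPKM) and for Cox8b as a percentage of Cox8a (0.999%). Control 4 was the highest control library for Atp5mc3 (132 FPKM), Atp5mf (238 FPKM) and Atp5pf (94.00 FPKM).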

How the results depend on the processing

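Of the log2 differences of the named members recomputed under the alternatives, 3106 kept their direction and their side of the threshold, 124 lost a call and 61 gained one, and none reversed. Against control, the counts of nuclear members were as follows, and the cause of each shift was not tested. Percentages in brackets are the shares of all genes called the same way in the same fit. Median-of-ratios scaling gave 1 lower in SJY (17.1%). Scaling to the sum without mitochondrial genes gave 2 lower in ALI (12.8%) and 5 in SJY (27.8%). Scaling to the sum of all genes was chosen after seeing the data. It gave 3 higher (4.56%) and 2 lower (11.8%) in ALI, with a median of 0.062. In SJY it gave 38 higher (8.04%) and 5 lower (24.7%), with a median of 0.36. A mean of at least 5 FPKM, which leaves out Cox8b, gave 0 lower in ALI (9.07%). Fitting only the 2 groups compared gave 4 higher in ALI (5.37%, a larger share than among the members). In SJY that fit called 11 mitochondrial genes, beside 17.6% of all genes higher and 25.9% lower. Array weights, which gave ALI 1 the lowest weight, gave 46 higher (13.7%) and 2 lower (15.7%) in ALI and 5 lower (32%) in SJY. They also called 10 mitochondrial genes in SJY, beside 24.8% of all genes higher and 32% lower. In SJY against ALI they called 11 nuclear members higher (2.21%).

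The labels do not say whether the replicate numbers pair the samples, which were treated as unpaired. Deviations of same-numbered libraries correlated at −0.389 to 0.302. This cannot settle the pairing, as libraries with different numbers were not compared. With the number as a replicate block, ALI against control had 0 nuclear members called higher (median 0.0051), beside 1.81% of all genes. SJY against control had 13 higher and 1 lower (median 0.40), beside 5.52% and 2.96% of all genes. ALI 2, control 7 and control 8 share their numbers with no other library, so comparisons within a number leave them out. The part of this loss in the smaller counts was not tested.

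Leaving out each library in turn, nuclear members called higher ranged from 4 (without control 7) to 38 (without control 4) in ALI against control, from 56 (without control 6) to 66 (without control 4) in SJY against control, and stayed at 0 in SJY against ALI. Of all genes, 6.12% and 9.3% were called higher in these ALI fits, and 12% and 15.3% in these SJY fits. Nuclear members called lower ranged from 1 to 2, from 1 to 5 and stayed at 0, in the same order of comparisons. Mitochondrial genes called ranged from 0 to 1 (Mt-nd5 without ALI 5), from 0 to 10 (without ALI 1) and stayed at 0. The medians of nuclear members ranged from 0.20 to 0.32, from 0.50 to 0.67 and from 0.28 to 0.37, and those of mitochondrial genes from 0.42 to 1.06, from 0.65 to 0.92 and from −0.22 to 0.35. Depth limits Cox8b, Cox6a2 and Mt-atp8, which rest on few reads.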
